A study of Danio rerio with 6 samples.

Results

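Expression of the genes that sort membrane proteins inside endosomes was examined in lysosome rich enterocytes (LRE) and in intestinal epithelial cells (IEC) of larval zebrafish. The set comprised every gene whose symbol begins with vps or chmp and a number, together with the other named subunits of the ESCRT machinery (hgs, stam, stam2, the tsg101 and mvb12 genes, snf8, ist1, pdcd6ip and vta1). In this way 63 of the 35117 counted genes were found. The rule used symbols and no measured value, although it was set with earlier results of these data known. Symbols are given as the gene-name table writes them, so many are in capitals and lack a paralogue letter, and 5 symbols are held by a pair of genes, which are kept apart here by their Ensembl ID.

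Both groups were cells of wild-type EK larvae sorted 6 days after fertilization. All larvae, including those that gave the IEC libraries, had been gavaged at 5 days with Alexa Fluor 568 dextran, a fluorescent sugar polymer that is taken up from the gut lumen, and were dissociated 24 hours later for sorting. LRE were sorted as positive for both the dextran and a cldn15la-GFP reporter of intestinal epithelium (3 libraries), and IEC as positive for the reporter (3 libraries). Whether the IEC gate left out dextran-positive cells is not stated in the labels. They also do not state that each library is a pool of its own, so the p-values reflect the spread among 3 libraries per group, part of which may be technical.

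Endosomal sorting decides whether a protein taken up from the cell surface is destroyed or used again. ESCRT complexes gather ubiquitin-tagged membrane proteins and bud them into vesicles inside the endosome, the tethering complexes CORVET and HOPS bring endosomes together and then bring late endosomes to lysosomes for fusion, and Retromer and Retriever pull receptors back out for recycling. Enterocytes that digest luminal protein inside large lysosomes depend on such traffic for both cargo delivery and the return of their uptake receptors.

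The libraries held 42321698 to 53250871 counts in LRE and 39590129 to 52824999 counts in IEC. The genes of the set took 0.252 to 0.304% of them in LRE and 0.234 to 0.358% in IEC. Genes of the uptake receptor of LRE (CUBN, amn, lrp2b and both genes with the symbol dab2) summed to 1340 to 2442 CPM (the count relative to the TMM-scaled library total) in LRE and to 42.9 to 56.5 CPM in IEC. Of these, the dab2 gene ENSDARG00000053091 overlapped between the groups (means of 12.7 CPM in LRE and 13.4 CPM in IEC). The 7 matched epithelial markers of 8 listed, cldn15la, epcam and cdh1 among them, summed to 8779 to 9698 CPM in LRE and 8946 to 11809 CPM in IEC. LRE library 1 stood apart, with reads in 19396 genes against 22974 to 25610 in the other 5 libraries, and mitochondrially encoded genes took 6.19 to 21.7% of the counts in LRE, with the highest share in that library, and 4.18 to 8.73% in IEC. Summed markers of other cells also separated the groups with TMM factors. Those of enteroendocrine cells (9 of 12 listed symbols matched) reached 242 to 1439 CPM in LRE and 1915 to 10561 CPM in IEC, those of best4 cells (5 of 5) 381 to 661 CPM in LRE and 1313 to 3879 CPM in IEC, those of goblet cells (4 of 6) 201 to 875 CPM in LRE and 1025 to 2501 CPM in IEC, and those of leukocytes (7 of 10) 59.4 to 102 CPM in LRE and 145 to 410 CPM in IEC. The best4 sum rested mostly on ca2 (means of 358 CPM in LRE and 2063.5 CPM in IEC). BEST4 itself was also lower in LRE, CFTR and SLC9A2 overlapped, and OTOP2 went the other way (means of 108 CPM in LRE and 91.0 CPM in IEC). Fibroblast markers (5 of 7) reached 2279 to 3369 CPM in LRE and 461 to 1215 CPM in IEC, muscle markers (5 of 9) 972 to 1722 CPM in LRE and 683 to 909 CPM in IEC, and neuronal markers (4 of 8) 122 to 183 CPM in LRE and 60.5 to 90.0 CPM in IEC. Scaled by library totals alone, the groups overlapped for the fibroblast, muscle and neuronal sums. Hepatocyte markers (9 of 10) and exocrine pancreas markers (7 of 12) overlapped between the groups, at 1009 to 2152 CPM in LRE and 647 to 1404 CPM in IEC for hepatocytes, and at 358 to 4518 CPM in LRE and 1247 to 3775 CPM in IEC for the pancreas. The hepatocyte sum was nonetheless higher in LRE in each pair of equal number (log2 ratios of 0.64, 1.415 and 0.62), and all 9 of its genes had a log2 fold change above 0 (median 0.94). No matched marker of these lists was at 0 in all libraries of a group, and the part of these cells in the results that follow was not tested. In such bulk samples fewer cells of a type and less RNA per cell cannot be told apart.

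Subunits of HOPS and CORVET and of Retromer and Retriever tended to lie higher in LRE. Most ESCRT genes overlapped between the 2 populations, although 24 of 34 tested had a log2 fold change above 0. The difference between the complexes was not tested. Of the 63 genes, 62 had reads and 61 passed the filter on low counts. A single gene, VPS18, a core subunit shared by HOPS and CORVET, was called higher in LRE and none was called lower (edgeR quasi-likelihood test with p-values adjusted by Benjamini-Hochberg over all 20979 genes tested, threshold 0.05). VPS18 makes up 1.64% of the tested members, against 2.30% called higher and 0.910% called lower among all genes tested, and 1.92% of the 52 members with a mean of at least 10 CPM, against 4.91% of all genes at that level, so the calls were no more frequent in the set than elsewhere. The count without LRE library 1 was 0.

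Below the threshold the set leaned towards LRE. The log2 fold change (LRE over IEC) was above 0 in 45 of the 61 tested members (73.8%), against 47.0% of all genes tested, and its median was 0.28, against -0.06 for all genes, or 0.15 without IEC library 3. The unadjusted p was under 0.05 with a higher level in LRE for 11 members (18.03%), against 9.79% of all genes. With a lower level it was so for 1, mvb12a, against 7.19% of all genes. All 3 LRE values lay above all 3 IEC values in 16 members (26.2%), against 13.0% of all genes tested, and below them in 4 members (6.56%), against 13.8%. Among genes of at least 10 CPM the first share was 30.8% of members and 17.7% of all genes. The direction relative to 0 depended on the scaling. With library totals alone the median of all genes moved by -0.40. Only 23 members (37.7%) then had a log2 fold change above 0, against 31.5% of all genes. VPS18 and VPS13C were the only members whose LRE values all lay above the IEC values (3.28%, against 5.69% of all genes). In 7 members (11.5%) they all lay below, against 21.1% of all genes. The larger share of members above was thus not seen with totals alone. Relative to the median of all genes, 46 of the 61 members lay higher with TMM factors and 48 with totals alone.

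**Figure D1:**
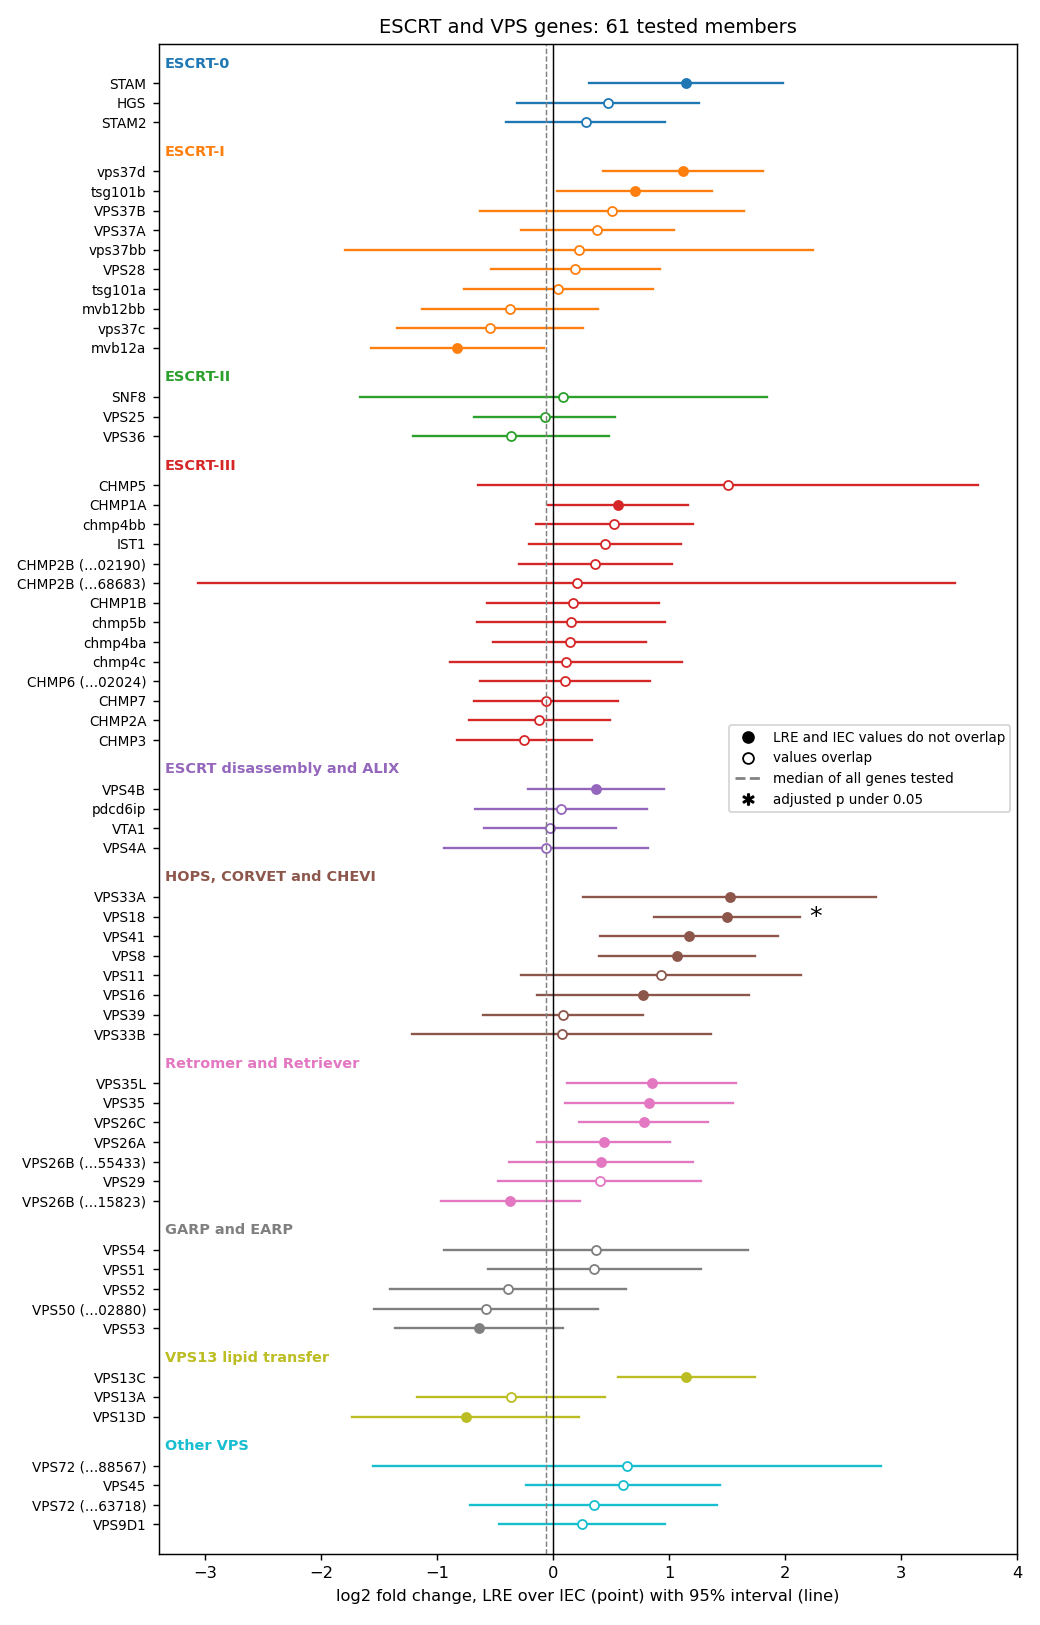
Log2 fold change of LRE over IEC (horizontal axis, point) with its 95% interval (line) for the 61 tested genes, grouped by complex. Filled points mark the 16 genes whose LRE values all lie above the IEC values and the 4 whose values all lie below, the dashed line is the median of all genes tested (-0.06), and the star marks VPS18, the gene that passed the test.

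Of the complexes, the group of HOPS, CORVET and CHEVI had the highest median log2 fold change, which came from subunits of HOPS and CORVET. HOPS and CORVET share the core subunits VPS11, VPS16, VPS18 and VPS33A, to which HOPS adds VPS39 and VPS41 and CORVET adds VPS8, whereas VPS33B belongs to the related CHEVI complex. All 8 genes had a log2 fold change above 0 with a median of 1.00. The test was passed by 1 of them (2.30% of all genes tested were called higher). In 5 of them (VPS16, VPS18, VPS33A, VPS41 and VPS8) all LRE values lay above the IEC values, as in 13.0% of all genes tested. With totals alone 6 of the 8 were above 0 and the median was 0.57. In VPS18 alone of the 8 the groups then did not overlap (5.69% of all genes lay above). Of this complex, VPS18 and VPS41 were named by the rule for named genes, and the other subunits were added after their values were seen to complete the complex.

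VPS18 (ENSDARG00000070433), which carries a RING finger and helps to hold the tethering core together, had 47.3, 32.7 and 45.9 CPM in the LRE libraries 1, 2 and 3, against 14.7, 16.3 and 13.5 CPM in the IEC libraries 1, 2 and 3. Every LRE value was at least 2-fold above every IEC value. The means were 42.0 ± 8.02 CPM in LRE and 14.9 ± 1.42 CPM in IEC (SD, n = 3 each), and the log2 fold change was 1.50 ± 0.28 (SE, adjusted p = 0.0273, 95% interval 0.87 to 2.13). The call held in 8 of 15 alternatives. It ended with totals alone (log2 fold change 1.08, adjusted p = 0.231), without LRE library 1 (0.0576), LRE library 3 (0.115), IEC library 1 (0.0691), IEC library 2 (0.0969) or IEC library 3 (0.146), and without both libraries numbered 1 (0.0884), and over the alternatives the adjusted p ran from 0.000278 to 0.231.

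VPS33A, the member of the Sec1 and Munc18 family that binds fusion proteins within HOPS, had 20.1, 21.2 and 23.5 CPM in LRE, against 2.102, 9.70 and 10.7 CPM in IEC. The LRE values lay close together and above all IEC values, and IEC library 1 was far below the other IEC libraries (log2 fold change 1.52 ± 0.55, adjusted p = 0.202). VPS16, which binds VPS33A, had 34.2, 39.1 and 63.2 CPM in LRE and 14.0, 33.3 and 32.4 CPM in IEC. The groups of VPS16 did not overlap but came close (0.77 ± 0.40, adjusted p = 0.380). VPS11, the remaining core subunit, had 12.8, 36.5 and 27.1 CPM in LRE and 5.68, 19.9 and 14.5 CPM in IEC. Its groups overlapped, because the library numbered 1 was the lowest of both, although LRE exceeded IEC within each pair of equal number (log2 ratios of 1.17, 0.88 and 0.90).

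VPS41, a HOPS subunit through which the complex binds its target membrane, had 71.4, 33.6 and 44.9 CPM in LRE, against 19.2, 20.9 and 26.7 CPM in IEC. The groups did not overlap, and LRE library 1 was the highest (log2 fold change 1.17 ± 0.34, adjusted p = 0.114; 0.82 without LRE library 1). VPS8, the CORVET subunit, had 35.0, 35.1 and 53.6 CPM in LRE, against 16.1, 21.4 and 21.5 CPM in IEC. It differed in the same direction in all pairs (1.07 ± 0.29, adjusted p = 0.0991). VPS39, the other HOPS-specific subunit, had 12.5, 15.2 and 14.1 CPM in LRE and 12.7, 13.7 and 13.0 CPM in IEC, so its values overlapped in a narrow range (0.08 ± 0.30, 95% interval -0.60 to 0.77). VPS33B of CHEVI had 9.67, 3.17 and 6.01 CPM in LRE and 5.08, 3.91 and 8.90 CPM in IEC, with no order between the groups (0.07 ± 0.57).

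**Figure D2:**
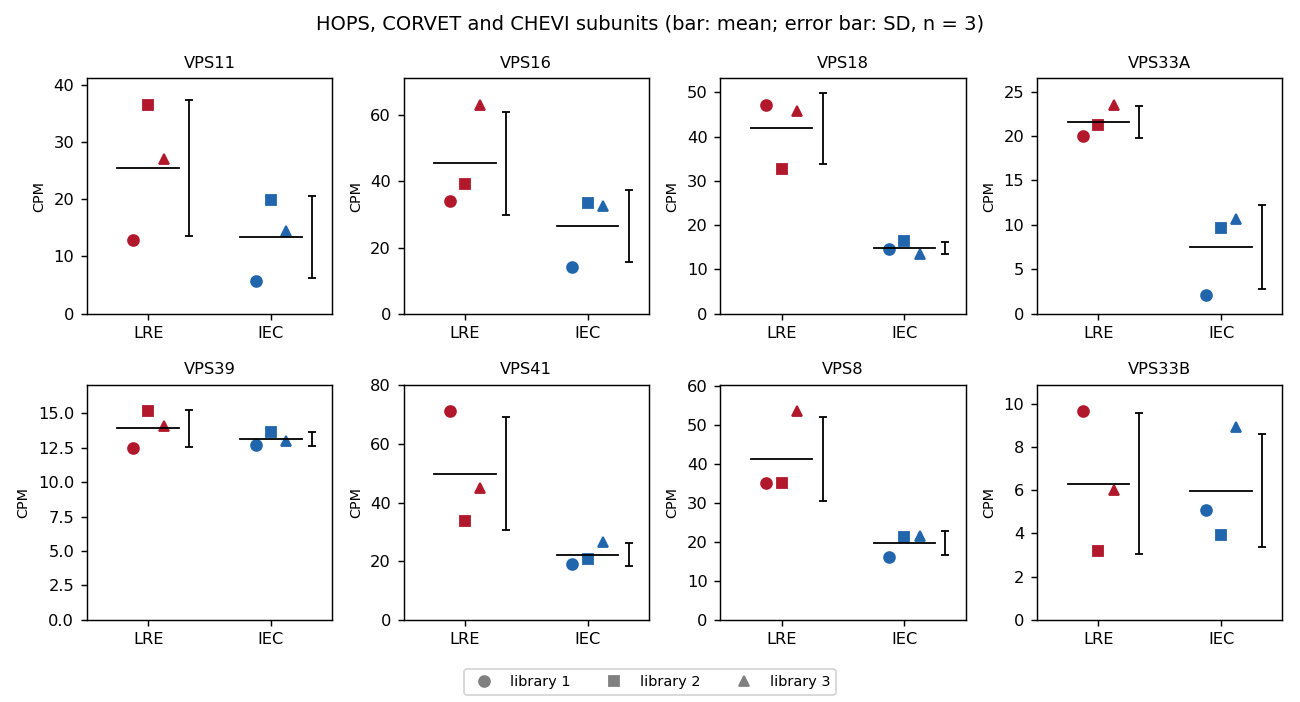
CPM of the 8 HOPS, CORVET and CHEVI genes in each LRE library (red) and each IEC library (blue), with the symbol shape giving the library number, the bar the mean and the error bar the SD of 3 libraries. The groups do not overlap for VPS16, VPS18, VPS33A, VPS41 and VPS8 and overlap for VPS11, VPS39 and VPS33B.

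The ratio of a pair of genes within a library does not depend on how libraries are scaled. These ratios were computed for 17 pairs chosen after the values were seen, and they describe these libraries without a test. The log2 ratio of VPS18 to VPS39 was 1.92, 1.11 and 1.71 in LRE, against 0.22, 0.26 and 0.05 in IEC. That of VPS41 to VPS39, the pair of HOPS-specific subunits, was 2.52, 1.14 and 1.67 in LRE, against 0.60, 0.61 and 1.03 in IEC, and that of VPS8 to VPS39 was 1.49, 1.21 and 1.93 in LRE, against 0.34, 0.65 and 0.73 in IEC. In all 3 ratios the groups did not overlap in these libraries. All 3 have VPS39 as the denominator, so they are not independent of each other. The ratio of VPS33A to VPS33B overlapped between the groups (1.05, 2.74 and 1.97 in LRE, against -1.27, 1.31 and 0.27 in IEC). Summed over the 8 genes, the abundance was 246 ± 30.9 CPM in LRE and 123 ± 29.3 CPM in IEC (SD, n = 3 each), and the log2 ratios within the pairs numbered 1, 2 and 3 were 1.44, 0.64 and 0.98. Unlike the ratios between genes, this sum depends on the scaling, and with totals alone its groups overlapped.

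The known partners of HOPS and CORVET were described from a list of Rab GTPases, SNAREs and adaptors. Of its 24 tested genes 18 had a log2 fold change above 0 (median 0.20), none passed the test, 3 had an unadjusted p under 0.05 with a higher level in LRE (edgeR; 9.79% of all genes did), and in 5 the LRE values all lay above the IEC values (13.0% of all genes). RAB7A (ENSDARG00000021287), one of 3 genes with that symbol and the GTPase of late endosomes, had 71.1, 77.0 and 80.7 CPM in LRE, against 15.8, 41.0 and 28.3 CPM in IEC. Its groups did not overlap (1.43 ± 0.36, adjusted p = 0.0751), and those of the other RAB7A genes did (0.15 and -0.29). STX7 and STX8, SNAREs of late endosome fusion, also had groups that did not overlap (1.41 ± 0.44, adjusted p = 0.142, and 1.097 ± 0.43, adjusted p = 0.229). TGFBRAP1, the second CORVET-specific subunit in mammals, lay the other way with 3.76, 10.9 and 6.12 CPM in LRE and 8.78, 15.0 and 11.5 CPM in IEC, with overlap (-0.76 ± 0.48, adjusted p = 0.481). VIPAS39, the partner of VPS33B, overlapped as well (-0.53 ± 0.59). These partners were picked out after their values were seen.

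Retromer and Retriever, the recycling complexes, also held 5 genes whose LRE values all lay above the IEC values (13.0% of all genes tested did). Retromer consists of VPS35, VPS29 and a VPS26 protein, and Retriever of VPS35L, VPS26C and the shared VPS29. Of the 7 genes 6 had a log2 fold change above 0 (median 0.43) and none passed the test (adjusted p from 0.142 to 0.669). An unadjusted p under 0.05 with a higher level in LRE was found in 3 (edgeR; 9.79% of all genes had it). In 1 gene the LRE values all lay below (13.8% of all genes tested did). With totals alone the median was 0.12, and in none of the 7 did the groups stay apart.

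VPS26C, an arrestin-like subunit of Retriever, had 50.5, 44.8 and 51.7 CPM in LRE, against 32.6, 26.0 and 27.1 CPM in IEC. Both groups were tight and did not overlap (log2 fold change 0.78 ± 0.24, adjusted p = 0.142, 95% interval 0.22 to 1.34). VPS35L, the scaffold of Retriever, had 22.3, 34.1 and 40.5 CPM in LRE, against 14.2, 19.8 and 19.8 CPM in IEC (0.85 ± 0.32, adjusted p = 0.217). VPS35, the scaffold of Retromer, had 167, 108 and 102 CPM in LRE, against 50.4, 82.3 and 79.9 CPM in IEC (0.83 ± 0.32, adjusted p = 0.225). For both scaffolds the groups did not overlap, but in VPS35 the distance was widest in the pair numbered 1, with log2 ratios of 1.73, 0.40 and 0.36 in the 3 pairs. The ratio of VPS35L to VPS35 did not separate the groups. VPS29, the subunit common to both complexes, had 103, 69.7 and 96.5 CPM in LRE and 110, 47.1 and 47.5 CPM in IEC, and overlapped because of IEC library 1 (0.40 ± 0.38).

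The 3 VPS26 genes of Retromer did not lie on the same side. VPS26A had 67.2, 51.2 and 56.3 CPM in LRE, against 37.7, 41.7 and 50.0 CPM in IEC, and the groups just missed each other (0.43 ± 0.25, adjusted p = 0.442). VPS26B (ENSDARG00000015823) had 25.3, 19.4 and 28.2 CPM in LRE, against 31.8, 32.2 and 30.3 CPM in IEC, with all LRE values below (-0.37 ± 0.26, adjusted p = 0.540). The second gene with the symbol VPS26B (ENSDARG00000055433) had 11.8, 12.7 and 10.1 CPM in LRE, against 9.16, 9.76 and 7.13 CPM in IEC, with all LRE values above (0.41 ± 0.35, adjusted p = 0.624). Within libraries, the log2 ratio of VPS26A to VPS26B (ENSDARG00000015823) was 1.41, 1.40 and 1.00 in LRE, against 0.25, 0.37 and 0.72 in IEC, without overlap. The ratio of VPS26C to the same gene was 1.00, 1.20 and 0.87 in LRE, against 0.03, -0.31 and -0.16 in IEC. That of VPS26C to VPS26A overlapped between the groups (-0.41, -0.19 and -0.12 in LRE, against -0.21, -0.68 and -0.88 in IEC). Reads of such similar genes may have been split or dropped in counting, so single paralogues are uncertain.

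**Figure D3:**
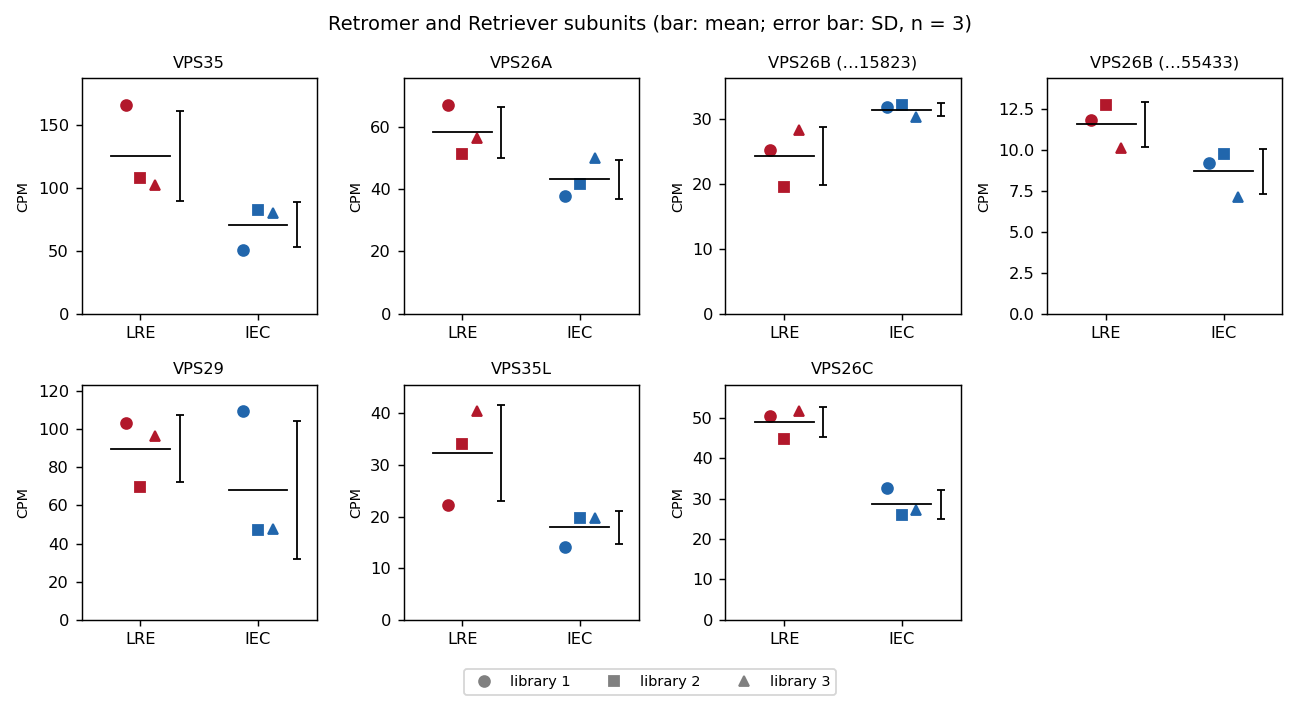
CPM of the Retromer and Retriever genes in each LRE library (red) and each IEC library (blue), with the symbol shape giving the library number, the bar the mean and the error bar the SD of 3 libraries. VPS26C keeps all LRE values (44.8 to 51.7) above all IEC values (26.0 to 32.6), and VPS26B (ENSDARG00000015823) has all LRE values below the IEC values.

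Proteins that work with these recycling complexes held the partners that passed the test. In the list of Retromer, WASH and commander partners, 3 of 37 tested genes were called higher (2.30% of all genes tested were) and none lower. A log2 fold change above 0 was found in 25 (median 0.34). In 12 the LRE values all lay above the IEC values (in 13.0% of all genes) and in 3 below (in 13.8%). Over the 5 partner lists together 3 of 114 tested genes were called higher, near the share of all genes, and none lower, or 6 higher with the replicate number as a block, where 3.76% of all genes were called higher. SNX2, a membrane-bending sorting nexin that acts with Retromer, had 294, 214 and 313 CPM in LRE, against 15.8, 19.1 and 19.1 CPM in IEC. It was the partner that rose most (log2 fold change 3.92 ± 0.30, adjusted p = 0.00176) and passed in all 15 alternatives. SNX17, which in mammals binds receptors of the LDL receptor family, megalin included, for recycling by Retriever, had 54.3, 49.0 and 54.0 CPM in LRE, against 10.9, 17.0 and 10.5 CPM in IEC. It rose by 2.03 ± 0.29 on the log2 scale (adjusted p = 0.0111), and the call ended with totals alone (0.120), without IEC library 3 (0.0677) and without both libraries numbered 1 (0.0620), with a range of 4.21e-07 to 0.120 over the alternatives. The third was fkbp15b, a relative of a mammalian protein that binds the WASH complex, with 71.1, 63.4 and 61.2 CPM in LRE, against 19.8, 28.5 and 25.2 CPM in IEC (1.41 ± 0.26, adjusted p = 0.0257), and its call ended with totals alone (0.297), in each leave-out of a library (0.0548 to 0.124) and without both libraries numbered 1 (0.0739).

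The WASH complex, which builds actin on endosomes, and the COMMD and coiled-coil proteins that join Retriever in the commander assembly were looked at after their values were seen. Of 6 genes of WASH subunits and fkbp15, 5 had a log2 fold change above 0 (median 1.00). In 4 the LRE values lay above all IEC values (13.0% of all genes tested did). Among them were fkbp15b, already counted above, WASHC3 (1.35 ± 0.40, adjusted p = 0.123) and washc2c (0.93 ± 0.30, adjusted p = 0.148). Of 12 genes for COMMD proteins, CCDC22, CCDC93 and dennd10, 9 were above 0 (median 0.33) and none passed. An unadjusted p under 0.05 with a higher level in LRE was found in 2 (edgeR; 9.79% of all genes had it). In 3 the LRE values all lay above the IEC values (13.0% of all genes tested did). CCDC22 had 33.8, 38.4 and 56.6 CPM in LRE, against 20.5, 26.0 and 27.5 CPM in IEC. SORL1, a sorting receptor returned by Retromer in mammals, lay the other way with 7.65, 16.3 and 6.49 CPM in LRE, against 23.9, 30.4 and 33.7 CPM in IEC (-1.53 ± 0.41, adjusted p = 0.0906). Its groups did not overlap, and it was called lower in 2 of 15 alternatives (adjusted p from 0.00993 to 0.251).

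The ESCRT machinery, 35 genes of which 34 were tested, had log2 fold changes nearer to 0 with TMM factors, although its difference from the other complexes was not tested. None of the 34 passed, and 24 had a log2 fold change above 0 (median 0.16). An unadjusted p under 0.05 was found in 4 (edgeR; 3 higher and 1 lower, against 9.79% and 7.19% of all genes). The groups did not overlap in 5 higher genes and 1 lower gene. The 5 of 34 are near the 13.0% of all genes tested with all LRE values above, and 13.8% of all genes had them below. With totals alone 9 were above 0 and 27 lay above the median of all genes. The median of the ESCRT genes was then -0.19, farther from 0 than that of the members outside ESCRT (0.015). The sum over all 35 genes was 2470 ± 298 CPM in LRE and 2118 ± 301 CPM in IEC (SD, n = 3 each), with overlap.

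ESCRT-0, which binds ubiquitin-tagged cargo first, consists of HGS with STAM or STAM2. STAM had 62.4, 56.2 and 58.1 CPM in LRE, against 14.5, 39.9 and 25.6 CPM in IEC. The LRE libraries were close together and above all IEC libraries (log2 fold change 1.14 ± 0.37, adjusted p = 0.151). STAM2 had 81.1, 60.6 and 70.2 CPM in LRE and 38.4, 68.9 and 67.4 CPM in IEC, with overlap (0.28 ± 0.30, adjusted p = 0.708). The log2 ratio of STAM to STAM2 was -0.38, -0.11 and -0.27 in LRE, against -1.41, -0.79 and -1.39 in IEC, so the share of STAM among the pair was larger in every LRE library. HGS had 60.2, 48.1 and 44.8 CPM in LRE and 22.0, 52.3 and 36.2 CPM in IEC, with overlap (0.47 ± 0.34).

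ESCRT-I is built from TSG101, VPS28, a VPS37 protein and an MVB12 protein, and its variable subunits lay on both sides. Of 10 genes 7 had a log2 fold change above 0 (median 0.21, or 0.096 without LRE library 2 and 0.091 without IEC library 2). The VPS37 subunit gene vps37d had 21.6, 22.6 and 19.8 CPM in LRE, against 8.22, 11.6 and 9.73 CPM in IEC. Its groups were tight and far apart, yet it did not pass (1.12 ± 0.30, adjusted p = 0.0946). Its relative vps37c had 26.4, 35.9 and 27.8 CPM in LRE and 33.9, 66.7 and 30.8 CPM in IEC, with overlap (-0.54 ± 0.35). The log2 ratio of vps37d to vps37c was -0.29, -0.67 and -0.49 in LRE, against -2.04, -2.53 and -1.66 in IEC, without overlap.

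The other variable subunit of ESCRT-I, MVB12, and the TSG101 pair showed the same mixture. The gene mvb12a had 24.7, 16.6 and 13.5 CPM in LRE, against 40.7, 27.2 and 29.5 CPM in IEC, the lowest log2 fold change of the set (-0.83 ± 0.33, adjusted p = 0.240), with all LRE values below, also with totals alone. Its relative mvb12bb overlapped (-0.38 ± 0.33). TSG101 recognises ubiquitin and the peptide signals of viruses that bud, and of its genes tsg101b had 40.2, 26.9 and 36.4 CPM in LRE, against 24.7, 22.4 and 16.5 CPM in IEC (0.70 ± 0.29, adjusted p = 0.266). The groups of tsg101b did not overlap, whereas those of tsg101a did (0.04 ± 0.36). The log2 ratio of tsg101b to tsg101a overlapped between the groups (1.72, 0.47 and 0.77 in LRE, against 1.06, 0.17 and -0.25 in IEC). VPS28, a constant subunit, had 187, 141 and 114 CPM in LRE and 173, 116 and 98.5 CPM in IEC, with overlap and the same order of the library numbers in both groups (0.19 ± 0.32, adjusted p = 0.821). The genes mvb12a, tsg101b and vps37c were picked out after their values were seen.

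ESCRT-II, which links ESCRT-I to ESCRT-III, lay near 0 with TMM factors (median -0.07, or -0.44 with totals alone). VPS25 had 33.8, 29.7 and 28.9 CPM in LRE and 39.8, 30.6 and 26.9 CPM in IEC (-0.07 ± 0.27, 95% interval -0.68 to 0.53). VPS36 had 9.70, 9.36 and 14.0 CPM in LRE and 18.3, 10.1 and 14.2 CPM in IEC (-0.37 ± 0.37, adjusted p = 0.685). Both overlapped, as did SNF8, which varied within groups more than between them (0.977 to 7.10 CPM in LRE and 1.97 to 4.86 CPM in IEC).

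ESCRT-III, whose CHMP proteins polymerise into the filaments that cut the bud neck, held 15 genes, of which 14 were tested and 11 had a log2 fold change above 0 (median 0.16, or 0.49 without IEC library 1 and -0.0013 without IEC library 3). None passed, and none had an unadjusted p under 0.05 (edgeR; 9.79% of all genes were higher and 7.19% lower at that level). CHMP1A, a late-acting filament protein, had 95.0, 80.6 and 70.1 CPM in LRE, against 67.5, 54.2 and 45.3 CPM in IEC. It was the only one of the 14 whose groups did not overlap (0.56 ± 0.27, adjusted p = 0.340). Among all genes tested 13.0% had all LRE values above and 13.8% below. In both groups CHMP1A was highest in library 1 and lowest in library 3. The filament subunit gene chmp4bb had 312, 293 and 242 CPM in LRE and 254, 179 and 156 CPM in IEC (0.53 ± 0.30, adjusted p = 0.429). Its paralogues chmp4ba and chmp4c overlapped between the groups (0.14 ± 0.29 and 0.11 ± 0.44), and the ratios of chmp4bb to each did so as well. CHMP2A, CHMP3 and CHMP7 lay slightly below 0 (-0.12, -0.25 and -0.06). The sum over the 15 genes was 1642, 1450 and 1204 CPM in LRE and 1544, 1136 and 956 CPM in IEC, with overlap.

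Few reads limited some genes, most of them second copies of a symbol. The second gene with the symbol CHMP2B (ENSDARG00000068683) had 0, 37 and 75 counts in LRE and 27, 50 and 30 counts in IEC, and CHMP5 had 103, 76 and 36 counts in LRE and 31, 50 and 21 counts in IEC (1.51 ± 0.95, adjusted p = 0.480), so neither difference was detectable at this depth. The second gene with the symbol CHMP6 (ENSDARG00000097451) had 13 and 11 counts in LRE libraries 2 and 3 and 0 in the other 4 libraries and was not tested. The second VPS50 gene (ENSDARG00000096912) had 0 counts in all 6 libraries, which allows up to 3 counts in each. The paralogue vps37bb had 34 to 63 counts in LRE and 38 to 55 in IEC (0.22 ± 0.89).

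The enzymes that take ESCRT-III apart and the accessory protein ALIX overlapped with 1 exception among 4 genes (13.0% of all genes tested had all LRE values above). VPS4B, the ATPase that recycles ESCRT-III subunits, had 230, 174 and 214 CPM in LRE, against 149, 168 and 163 CPM in IEC, and the groups were just apart (0.37 ± 0.26, adjusted p = 0.536). VPS4A (-0.06 ± 0.39) and the VPS4 cofactor VTA1 (-0.03 ± 0.25) overlapped. The log2 ratio of VPS4B to VPS4A overlapped too (5.02, 4.12 and 4.86 in LRE, against 4.45, 4.15 and 4.13 in IEC). The gene pdcd6ip, which encodes ALIX, had 185, 225 and 172 CPM in LRE and 131, 260 and 165 CPM in IEC (0.06 ± 0.32, adjusted p = 0.947). ESCRT partners, among them the deubiquitinating enzyme and ligase genes that act on the same cargo, gave no call among 21 tested genes (edgeR, median -0.00). At an unadjusted p under 0.05, 2 were higher and 1 lower, against 9.79% and 7.19% of all genes. Over all 61 tested members, the 95% interval of the log2 fold change lay within -1 and 1 in 18 genes and within -2 and 2 in 54.

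**Figure D4:**
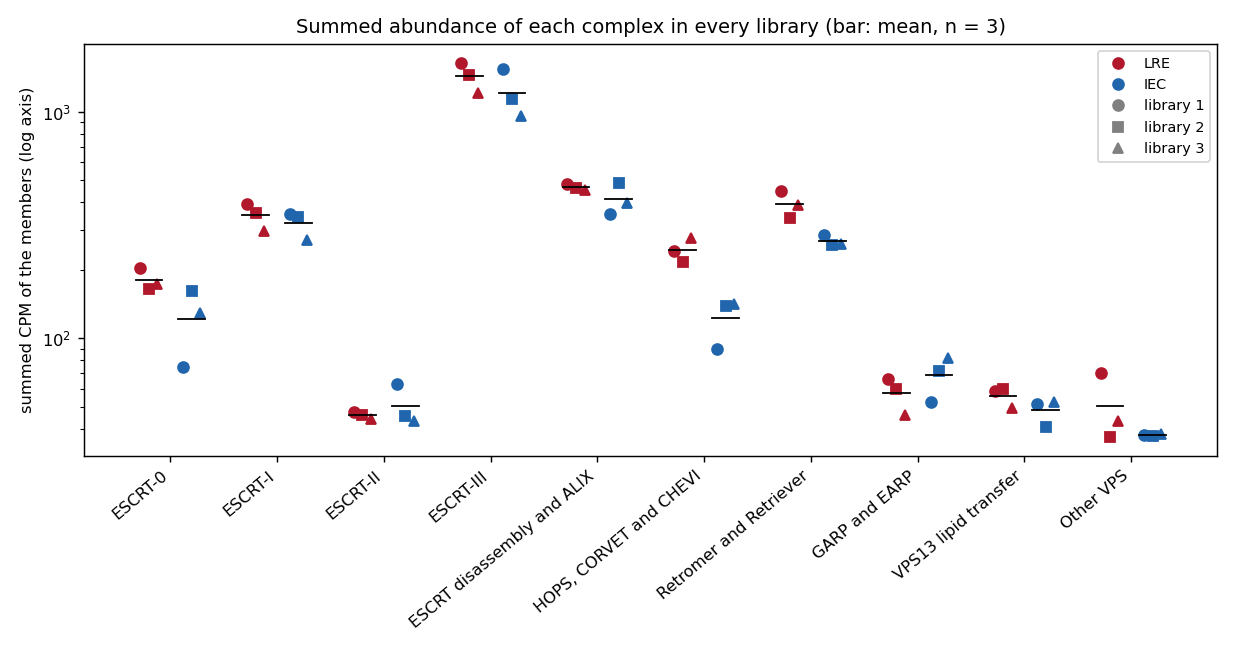
Summed CPM of the genes of each complex (log axis) in each LRE library (red, left of each pair) and each IEC library (blue, right), with the symbol shape giving the library number and the bar the mean of 3 libraries. With TMM factors the groups are just apart for ESCRT-0 (165 to 204 CPM in LRE, 74.9 to 161 CPM in IEC). They are also apart for HOPS, CORVET and CHEVI (217 to 278 CPM in LRE, 89.4 to 141 CPM in IEC) and for Retromer and Retriever (340 to 447 CPM in LRE, 259 to 286 CPM in IEC), and overlap for the other complexes. With totals alone the groups overlap for ESCRT-0, for HOPS, CORVET and CHEVI and for Retromer and Retriever as well.

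GARP and EARP, which tether endosome-derived vesicles at the Golgi and at recycling endosomes, lay on both sides of 0. Of 6 genes 5 were tested, 2 had a log2 fold change above 0, a share near the 47.0% of all genes tested, the median was -0.39 and none passed. VPS53, a subunit of both complexes, had 13.6, 14.9 and 12.3 CPM in LRE, against 16.6, 19.1 and 27.8 CPM in IEC. All its LRE values lay below the IEC values (-0.64 ± 0.32, adjusted p = 0.361), as in 13.8% of all genes tested. The groups of VPS51, VPS52, VPS54 and VPS50 (ENSDARG00000002880) overlapped. The median of the 5 genes was -0.64 without LRE library 1, -0.13 without LRE library 3 and -0.23 without IEC library 3. The list of GARP and EARP partners, with 12 tested genes, gave no call (edgeR, median 0.03). At an unadjusted p under 0.05, 1 was higher, against 9.79% of all genes.

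The VPS13 proteins, bridges that carry lipids between membranes, differed among themselves. VPS13C, which in mammals joins the endoplasmic reticulum to late endosomes and lysosomes, had 33.7, 32.2 and 30.0 CPM in LRE, against 14.6, 13.5 and 15.2 CPM in IEC. The means were 32.0 ± 1.85 CPM in LRE and 14.4 ± 0.824 CPM in IEC (SD, n = 3 each), and the groups were apart with totals alone too. The log2 fold change was 1.15 ± 0.26 and just missed the threshold (adjusted p = 0.0535, 95% interval 0.56 to 1.74), while with the replicate number as a block it passed (0.0456). VPS13A overlapped (20.7, 19.2 and 10.1 CPM in LRE and 21.3, 17.6 and 25.6 CPM in IEC). VPS13D had 4.24, 8.11 and 9.35 CPM in LRE, against 15.4, 9.57 and 11.7 CPM in IEC, with all LRE values just below (-0.76 ± 0.43, adjusted p = 0.433). The log2 ratio of VPS13C to VPS13A was 0.70, 0.75 and 1.57 in LRE, against -0.54, -0.38 and -0.75 in IEC, and that of VPS13C to VPS13D was 2.99, 1.99 and 1.68 in LRE, against -0.08, 0.50 and 0.37 in IEC.

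The remaining genes with a VPS symbol overlapped between the groups. VPS45, a fusion regulator of early endosomes, had 26.4, 12.0 and 20.7 CPM in LRE and 11.6, 12.1 and 15.2 CPM in IEC (0.60 ± 0.37, adjusted p = 0.465). VPS9D1 (0.25 ± 0.32) overlapped as well. So did both genes with the symbol VPS72 (0.35 ± 0.47 and 0.64 ± 0.96), which encodes a subunit of chromatin remodelling complexes and no endosomal protein. A list of lipid kinases and phosphatases that act on phosphoinositides, together with their partner and effector proteins, gave no call in 20 tested genes. At an unadjusted p under 0.05, 2 were higher (edgeR; 9.79% of all genes were). In 4 the LRE values all lay above the IEC values (13.0% of all genes) and in 1 below (13.8%). PIKFYVE, the kinase of late endosomes, had 48.0, 33.5 and 24.0 CPM in LRE, against 12.2, 21.4 and 13.6 CPM in IEC (1.16 ± 0.36, adjusted p = 0.142).

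With the replicate number as a block, VPS18 and VPS13C were called higher (2 members, where 3.76% of all genes were called higher). DESeq2 called 5 of 61 members higher, namely VPS18 (adjusted p = 0.000278), VPS13C (0.00302), vps37d (0.0154), VPS8 (0.0301) and VPS41 (0.0376), and none lower. Of all genes to which it gave an adjusted p, 6.60% were called higher and 4.34% lower. The 5 members are 3 subunits of the tethering complexes, a lipid bridge and an ESCRT-I subunit. In the 6 leave-outs of a library and without both libraries numbered 1, the adjusted p of VPS13C ran from 0.0906 to 0.207, of vps37d from 0.125 to 0.287, of VPS8 from 0.104 to 0.325 and of VPS41 from 0.104 to 0.299.

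**Figure D5:**
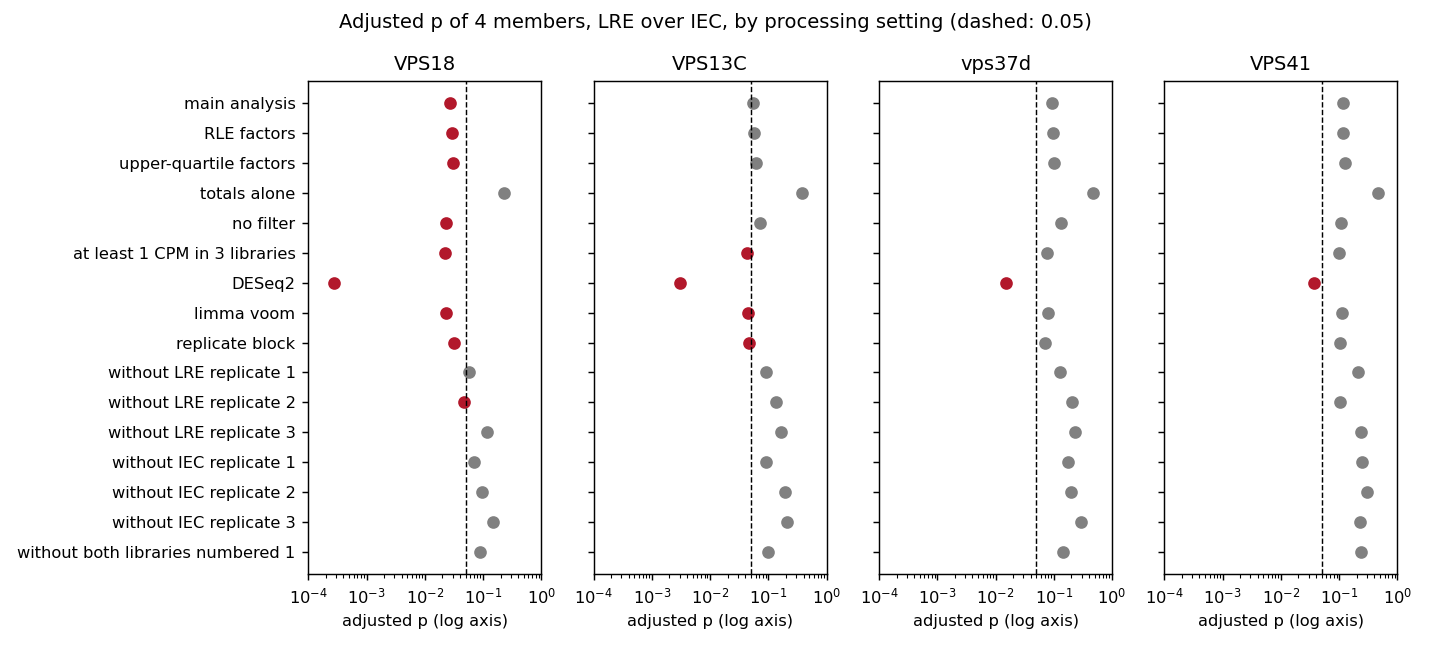
Adjusted p (log axis) for VPS18, VPS13C, vps37d and VPS41 in the main analysis and in each of the 15 alternatives, with values under 0.05 in red and the dashed line at 0.05. VPS18 passes in the main analysis and in 8 alternatives, VPS13C in 4 alternatives, and vps37d and VPS41 with DESeq2.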

How the data were processed

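RNA from 3 LRE and 3 IEC libraries was sequenced after amplification with a Clontech low-input kit, per the labels' protocols. HISAT2 (alignment), HTSeq (counting) and the build GRCz10 are named in the submitters' processing notes, whose versions and whose handling of strand and of overlapping genes are not given. Each deposited file holds raw counts, as whole numbers, for Ensembl genes (35117 genes per file, 0 entries that name no gene), used as deposited. A table of IDs and symbols covered 27000 of them. Antisense or overlapping genes may share reads. Gene lengths of that build were not used, so levels are not compared between genes, and no sequences were used.

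Counts were tested with edgeR 4.0.16 in R 4.3.3 by its quasi-likelihood F test, with TMM factors from 0.692 to 1.40, filterByExpr (minimum count 10, minimum total 15) and a Benjamini-Hochberg threshold of 0.05. The SE is the size of the log2 fold change over the root of F, and intervals cover 95%. The biological coefficient of variation, a common value over all genes tested, was 0.651. The fit was tested on simulated data. A count of 0 allows up to 3 counts, for counting error only. Alternatives were RLE factors, upper-quartile factors, totals alone, no filter, a filter of 1 CPM in 3 libraries, DESeq2 1.42.0, voom of limma 3.58.1, the replicate block, each library left out in turn, and both libraries numbered 1 left out. Members, partner lists and marker lists were chosen with earlier results of these data known. Of 143 partner symbols 103 matched, as 115 genes. Values were printed for members that passed and, in each complex, for the member with the smallest p and the one with the highest mean CPM (17 genes in all), and for partners that passed. All other genes were picked out after their values were seen.

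Libraries of equal number deviated together from their group means (Pearson's r over genes 0.307, 0.392 and 0.299), while the other pairs between the groups gave -0.258 to -0.0848. Deviations from a group mean sum to 0, so a positive r for equal numbers draws the other r values down. On that ground alone the numbers were treated as pairs, since the labels give them no meaning. Pairs entered only the replicate block and the ratios within pairs. The main test, with its SE and adjusted p, used the group alone. Each pair of libraries differed by more than sampling noise.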

Additional observations from a re-analysis of the deposited data

How the results depend on the processing

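Among the members, 1 was called higher, against 0 with totals alone, 2 with at least 1 CPM in 3 libraries, 2 with limma voom, 2 with the replicate block, 5 with DESeq2, 0 without both libraries numbered 1, and 0 to 1 with a library left out, where only the leave-out of LRE library 2 kept VPS18. None was called lower in any alternative. Of the partners 3 were called higher, against 1 with totals alone, 8 with DESeq2, 5 with limma voom, 6 with the replicate block, 1 without both libraries numbered 1 and 1 to 2 with a library left out, and 0 were called lower, against 1 with DESeq2 and 0 to 1 with a library left out. The share of all genes called higher moved too. It was 2.30% in the main analysis, 0.653% with totals alone and 3.13% with at least 1 CPM in 3 libraries. With limma voom it was 2.89%, with the replicate block 3.76% and with DESeq2 6.60%. Without both libraries numbered 1 it was 1.15%, and with a library left out 0.675 to 1.90%. The share called lower was 4.34% with DESeq2 and 0.129 to 1.19% with a library left out. The replicate block changed no other call of a named member than that of VPS13C.

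Counts of members whose groups do not overlap were recomputed in settings chosen after seeing the data. The 16 above became 2 with totals alone, 27 without both libraries numbered 1 and 16 to 23 with a library left out, and the 4 below became 7, 7 and 5 to 6. Groups with fewer libraries overlap less by construction, and the shares of all genes moved too. The share above became 5.69% with totals alone, 27.7% without both and 16.0 to 21.9% with a library left out. The share below became 21.1%, 27.8% and 17.0 to 20.8% in the same order.

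Over all 61 tested members, 45 had a log2 fold change above 0 in the main analysis and 23 with totals alone. The turns of sign that follow are those among the 17 members named by the rule. With totals alone the sign turned for VPS4B (-0.068), pdcd6ip (-0.39), STAM2 (-0.22) and VPS28 (-0.18). Without both libraries numbered 1 it turned for pdcd6ip (-0.10), STAM2 (-0.062) and VPS25 (0.024). With a library left out, pdcd6ip ran from -0.14 to 0.34 (below 0 without LRE library 2, IEC library 1 or IEC library 3), VPS28 from -0.021 to 0.45 (below 0 without LRE library 1 or IEC library 3) and VPS25 from -0.24 to 0.095 (above 0 without IEC library 1). The cause was not tested. The SE of the log2 fold change was 0.244 to 1.43 over the tested members (median 0.328). This limits what 3 libraries per group can show for changes of this size.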
